A study of Mus musculus with 12 samples.

Results

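The 55 genes described here encode the machinery of mitosis and chromosome segregation. They were chosen by name, from a fixed list of gene symbols, and were found in all 12 RNA-Seq libraries among 24439 gene names; 12442 genes, with all 55 among them, passed a filter on low values and were tested. The libraries came from CD4 T cells of the mouse line C42, on a C57BL/6 background, which carries a human IL3/CSF2 transgene in all groups. Splenic CD4 T cells had been turned into proliferating T blasts (TB) with the mitogen concanavalin A for 40 h and were then kept in IL-2 at 50 U/ml. The 4 groups, each of 3 libraries, were T blasts kept in IL-2 (TB IL-2), T blasts left without IL-2 for 16 h (TB IL-2nil), and both kinds of cells after stimulation with PMA and the calcium ionophore A23187 (PMA/I), named TB+ IL-2 and TB+ IL-2nil. PMA/I stands in for the signals of the T cell receptor. Whether dead cells were removed before RNA was taken is not stated for these cultures in the sources used here. The labels number the 3 libraries of a group as replicates and say nothing of separate animals, so that the P values measure the spread between these libraries.

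The library labelled TB IL-2nil replicate 3 and the library labelled TB+ IL-2 replicate 3 were placed in each other's group here, because in the expression list published by the study, which has 1 column for each library, the 2 columns with these names hold the values of the other library, with 100% of 1381 genes matching within 0.1%. *Il2*, which PMA/I induces, was at 1368 FPKM in the first and 0.29 FPKM in the second, against 1095 to 2374 FPKM in the other stimulated and 0 to 1.18 FPKM in the other resting libraries. Counts of genes past the test among the 55 are given, in the comparisons of groups, with the 2 libraries placed, as labelled, and left out. Counts by role, of orders of group means and, unless stated, of groups that did not overlap are given as placed. As labelled, 1 gene of the APC/C role and 0 of every other role passed as higher with IL-2 at rest. TB IL-2nil replicate 1 stood apart as well, with the lowest level of its group for 54 of the 55 genes (the exception was *Pttg1*), and TB+ IL-2nil replicate 1 was lowest in its group for 50 of them. Genes of short RNAs, such as small nucleolar RNAs and microRNAs, took 16.4% to 53.0% of the rescaled values before scaling between libraries, with the highest share in TB+ IL-2nil replicate 1. CD4 T cell markers were at 54.6 to 937 TPM before that scaling.

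Mitosis is driven by the kinase Cdk1 with its cyclins, together with the Polo-like and Aurora kinases. Chromosomes are packed by condensin and topoisomerase II, are caught by spindle microtubules at the kinetochores, and are held together until the anaphase-promoting complex (APC/C), started by Cdc20 once the spindle checkpoint is satisfied, frees separase to cut cohesin. Many of these genes are transcribed late in the cell cycle through a promoter element called CHR, to which the MuvB complex binds, often with CCAAT boxes bound by NF-Y upstream of it. IL-2 is the growth factor that keeps activated T cells dividing.

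Each gene is given as TPM, deposited FPKM rescaled to the same sum in every library and thus a level per transcript length, in replicates 1, 2 and 3 of a group in that order, with the groups as placed. Differences are in log2(TPM + 1), which understates the change of genes at low levels, and were tested by limma in 1 fit of all 12 libraries with Benjamini-Hochberg adjustment over the 12442 genes. A gene was called higher or lower at an adjusted P below 0.05. The fit did not pair libraries of the same number, and counts with the replicate number as a block are given beside it.

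In T blasts kept in IL-2, *Top2a*, which encodes topoisomerase II alpha, had the highest level of the 55 genes at 504 ± 52.1 TPM (SD, n = 3), followed by *Mki67*, the gene of the proliferation antigen Ki-67, at 319 ± 75.6 TPM. *Ube2c* at 238 ± 116 TPM, *Smc4* at 236 ± 36.4 TPM and *Birc5* at 213 ± 52.0 TPM came next, and these 3 neighbours were not apart beyond their spread. The lowest levels were those of *Pttg1* at 22.2 ± 6.00 TPM and of *Cdc25c*, the phosphatase that activates Cdk1, at 12.3 ± 5.11 TPM. None of the genes was at 0 in any library. Summed over the 55 genes, the level was 5058 ± 824 TPM in TB IL-2, 1774 ± 921 TPM in TB IL-2nil, 2824 ± 626 TPM in TB+ IL-2 and 681 ± 345 TPM in TB+ IL-2nil. The sum in TB IL-2nil replicate 1 was 713 TPM, against 2246 and 2362 TPM in the other libraries of that group. For 44 of the 55 genes the group means ran in the same order, from TB IL-2 through TB+ IL-2 and TB IL-2nil down to TB+ IL-2nil. Another 7 genes, *Plk1*, *Aurka*, *Cenpf*, *Kif22*, *Kif2c*, *Prc1* and *Kif20a*, had TB IL-2nil above TB+ IL-2, and *Smc4*, *Pttg1*, *Cdc20* and *Kif15* each had an order of their own. These orders were taken as placed and were not counted over all genes. Some rest on near ties: both TB IL-2nil and TB+ IL-2 averaged 5.07 TPM for *Ttk* and 15.9 TPM for *Kif20a*. As labelled, TB IL-2nil exceeded TB+ IL-2 for some of the 44, such as *Ccnb1*, at 44.1 against 37.9 TPM. In bulk libraries, fewer cells that carry a transcript and less of it per cell cannot be told apart.

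**Figure D1:**
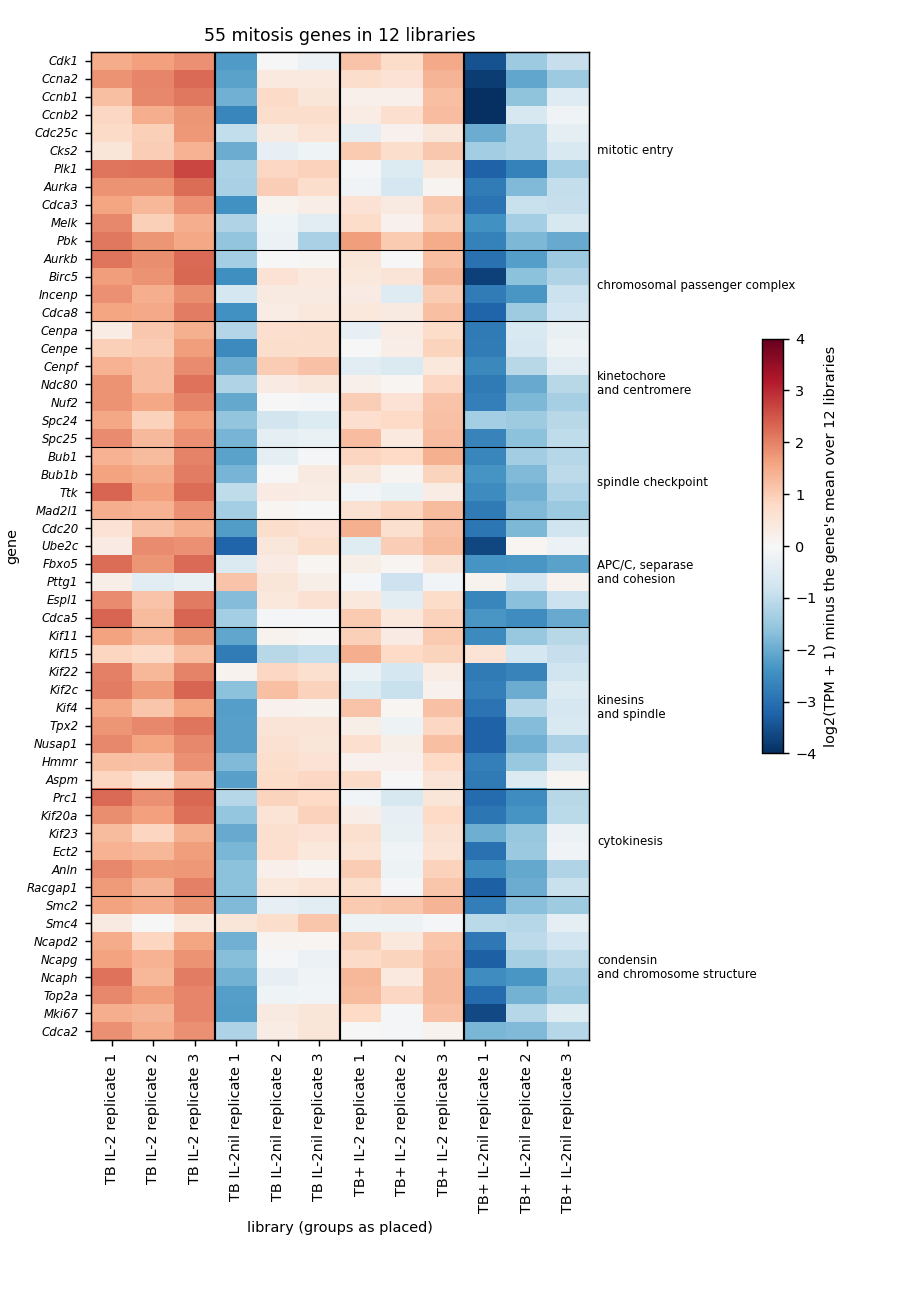
Levels of the 55 genes (rows, grouped by role) in the 12 libraries (columns, groups as placed), as log2(TPM + 1) minus the mean of each gene over the 12 libraries; red is above and blue below that mean. Colours stop at 4 in either direction, which cuts off 2 values, and replicate 1 of TB IL-2nil and of TB+ IL-2nil are the bluest columns of their groups.

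**Figure D2:**
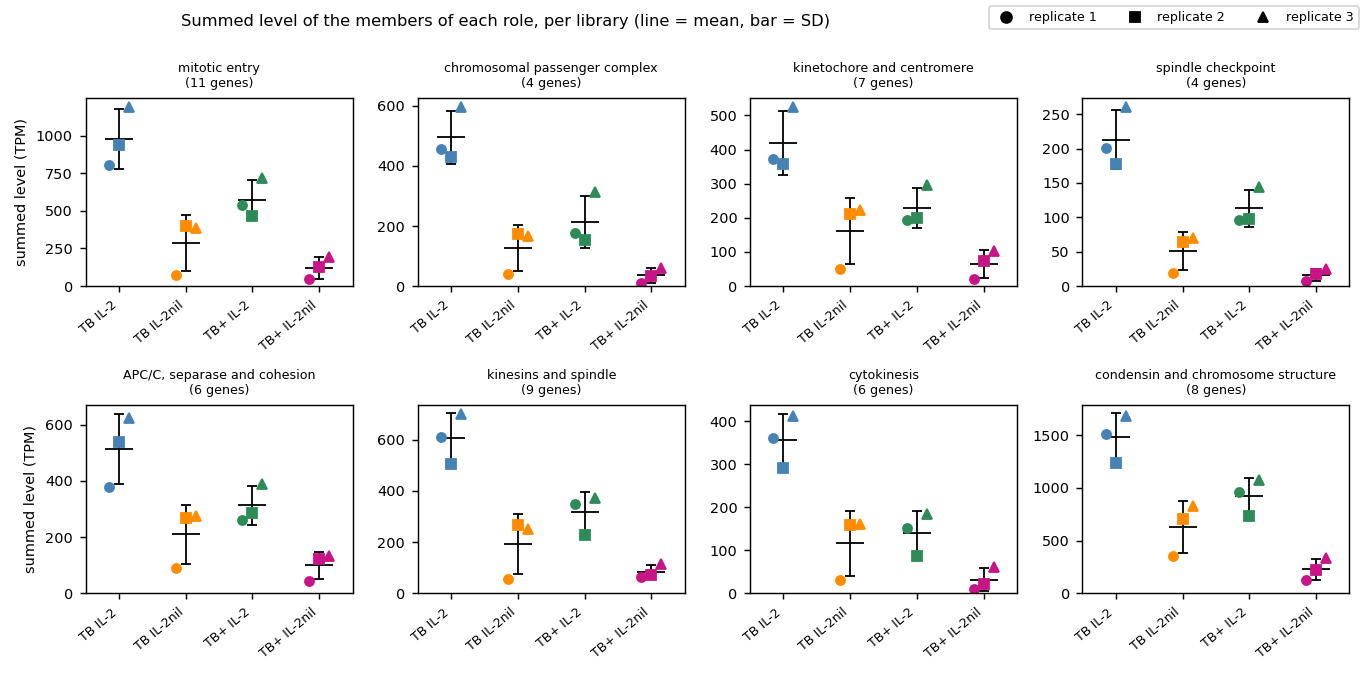
Summed level (TPM) of the genes of each role in each library, with replicates 1, 2 and 3 as circle, square and triangle, the group mean as a line and the SD as a bar (n = 3, groups as placed). In all 8 roles the mean is highest in TB IL-2 and lowest in TB+ IL-2nil.

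The promoters of these genes were searched for known motifs. CHR and CCAAT were picked because mitosis genes are known targets of MuvB and NF-Y, so their shares describe these promoters and test nothing. RefSeq promoters (build GRCm38.p6, 250 bases before to 50 bases after the transcription start) were matched for 45 of the 55 genes, with 2 promoters each for *Prc1* and *Ect2*; *Ccna2*, *Cdc25c*, *Pbk*, *Aurkb*, *Incenp*, *Spc24*, *Tpx2*, *Kif20a*, *Smc4* and *Cdca2* were not matched. A CHR element, searched as TTTGAA or TTCGAA on both strands, lay in the promoters of 35 of the 45 genes (77.8%), against 21.7% of the 27025 genes with a promoter. Between 40 bases before and 50 bases after the start it was found in 32 of the 45 (71.1%) and in 5.48% of all genes. CCAAT, on either strand, was present in 33 (73.3%, against 41.1% of all genes), at least 2 copies of it in 23 (51.1%, against 13.3%), and CHR together with CCAAT in 30 (66.7%, against 8.61%). An E2F site (TTTCCCGC, TTTCGCGC, TTTGCCGC or TTTGGCGC, both strands) was found in 4 genes (8.89%, against 2.6%). The letters TTCNNNGAA, which STAT factors such as the IL-2-activated STAT5 recognise, lay in 1 of the 45 windows, that of *Ncaph* (2.22%, against 9.55% of all genes). Of the 10 genes with no CHR letters, *Ccnb1*, *Cks2*, *Cenpe* and *Ncaph* held another of the motifs, and *Melk*, *Birc5*, *Nuf2*, *Mad2l1*, *Pttg1* and *Nusap1* held none of them. A match describes letters only, and a missing match says that these letters are not in this window.

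The 120 bases up to the transcription start are printed for 7 genes. They show the shared arrangement, CHR with CCAAT as in 30 of the 45 genes, in genes of 3 roles. *Kif15* and *Pttg1*, also printed, lack it. Group means ran in an order of their own for *Kif15*, *Pttg1* and *Cdc20*, and *Cdc20* has the shared arrangement. Other genes that lack it, such as *Melk*, *Birc5*, *Nuf2*, *Mad2l1* and *Nusap1*, had the common order of group means with the groups as placed. A link between promoter letters and levels was not tested. Capitals mark CHR elements (TTTGAA, or TTCAAA where it reads on the other strand), CCAAT boxes (CCAAT, or ATTGG on the other strand) and, in *Kif15*, an E2F site (GCGCCAAA). The windows lie at chr10:69352913-69353032 (minus strand) for *Cdk1*, chr4:118437344-118437463 (minus) for *Cdc20*, chr15:102296173-102296292 (plus) for *Espl1*, chr19:37376262-37376381 (plus) for *Kif11*, chr7:127042421-127042540 (minus) for *Kif22*, chr9:122950961-122951080 (plus) for *Kif15* and chr11:43425982-43426101 (minus) for *Pttg1*.
Cdk1: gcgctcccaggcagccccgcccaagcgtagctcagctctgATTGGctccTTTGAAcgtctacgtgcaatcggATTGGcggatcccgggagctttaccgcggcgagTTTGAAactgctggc
Cdc20: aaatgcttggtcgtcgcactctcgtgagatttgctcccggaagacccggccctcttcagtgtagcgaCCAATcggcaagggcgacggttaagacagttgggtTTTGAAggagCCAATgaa
Espl1: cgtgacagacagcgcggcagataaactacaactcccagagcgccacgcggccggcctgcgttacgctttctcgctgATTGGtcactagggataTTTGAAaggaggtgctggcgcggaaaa
Kif11: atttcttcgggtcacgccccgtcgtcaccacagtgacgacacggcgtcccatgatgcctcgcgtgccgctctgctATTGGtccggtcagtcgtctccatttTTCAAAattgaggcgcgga
Kif22: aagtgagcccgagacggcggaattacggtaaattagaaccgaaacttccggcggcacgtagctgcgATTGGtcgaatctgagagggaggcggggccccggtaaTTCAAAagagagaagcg
Kif15: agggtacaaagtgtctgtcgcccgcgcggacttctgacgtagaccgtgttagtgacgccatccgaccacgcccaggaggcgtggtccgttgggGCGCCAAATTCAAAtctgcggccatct
Pttg1: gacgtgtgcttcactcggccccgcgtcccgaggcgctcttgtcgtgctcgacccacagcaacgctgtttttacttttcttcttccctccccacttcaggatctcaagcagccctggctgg
*Cdk1* holds 2 CHR elements and 2 CCAAT boxes in this stretch, *Cdc20* 1 and 2, and *Espl1*, *Kif11* and *Kif22* 1 of each, with a CHR element within 40 bases of the start in all of them. In *Kif15* the CHR element adjoins the E2F site and there is no CCAAT box, and *Pttg1* shows none of these letters.

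**Figure D3:**
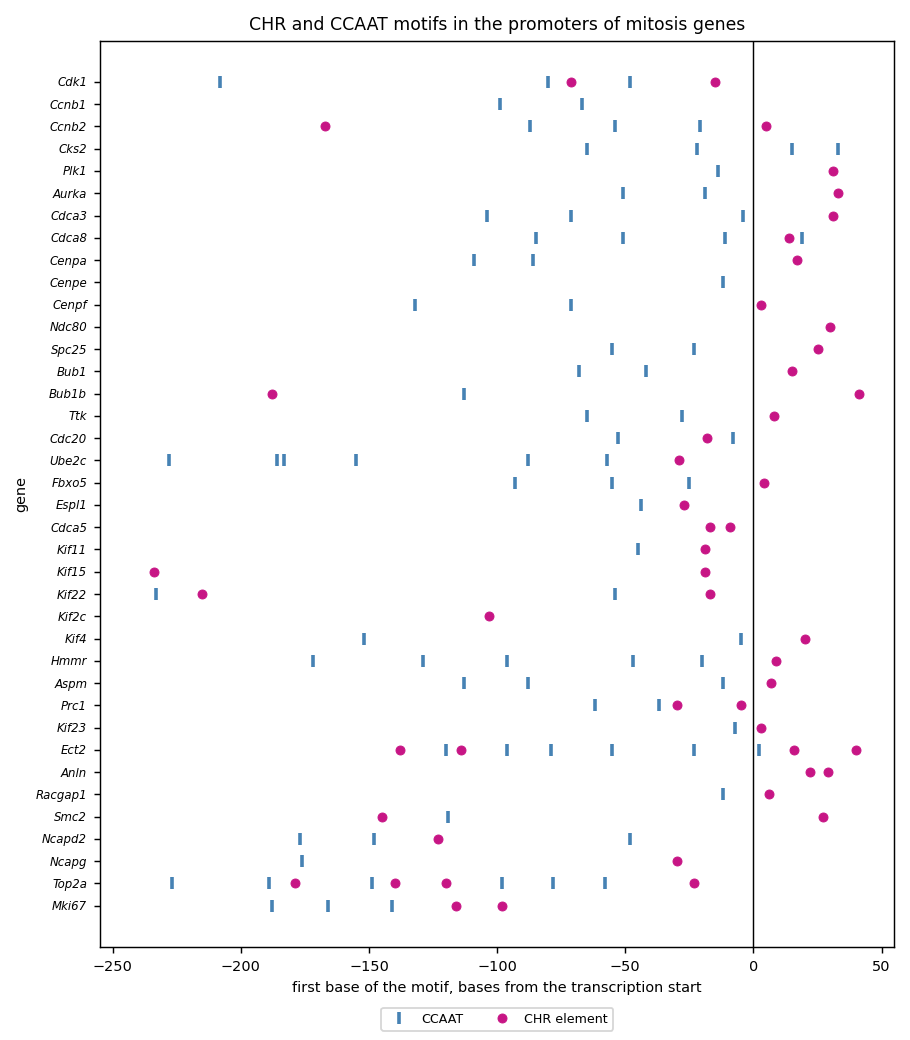
Position of CHR elements (circles) and CCAAT boxes (ticks), as distance in bases from the transcription start (vertical line), in the member promoters that hold either; *Prc1* and *Ect2* have 2 promoters each, drawn on 1 row. Most circles lie near the start, and most ticks lie upstream of it.

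The first comparison asked what IL-2 maintained in resting T blasts. Mitosis genes were higher in TB IL-2 than in TB IL-2nil as a group: 38 of the 55 passed the test as higher, all 38 with more than a 3-fold difference, and 0 passed as lower, against 17.3% of all genes called higher, 4.69% higher by more than 3-fold and 22.3% lower. The median difference was 2.05 over the 55 genes and -0.13 over all genes tested. After IL-2 withdrawal a median of 28.8% of the level in TB IL-2 was left. All 3 TB IL-2 libraries lay above all 3 TB IL-2nil libraries for 49 of the 55 genes, against 22.8% of all genes, and below them for *Pttg1* and *Smc4*. As labelled, they lay above for 40 genes and below for 0, against 1261 and 735 of the 12442 genes tested. At an unadjusted P below 0.05, counted in either direction, were 47 of the 55 genes and 6092 of the 12442 genes tested. Without the 2 libraries the same 38 genes passed, against 14.4% of all genes higher. As labelled, the median difference stayed at 1.87 and 53 of 55 genes were above 0, but 1 gene, *Fbxo5*, passed the test, against 0.0723% of all genes. With the replicate number as a block in the fit, 49 genes passed as higher and *Pttg1* and *Smc4* as lower, against 21.3% and 29.5% of all genes. The number higher was 22 without TB IL-2 replicate 3 and 25 without TB IL-2nil replicate 1. The 17 genes that did not pass were *Ccnb1*, *Ccnb2*, *Cdc25c*, *Cenpa*, *Cenpe*, *Cenpf*, *Cdc20*, *Ube2c*, *Pttg1*, *Kif22*, *Kif2c*, *Hmmr*, *Aspm*, *Kif23*, *Ect2*, *Smc4* and *Mki67*.

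**Figure D4:**
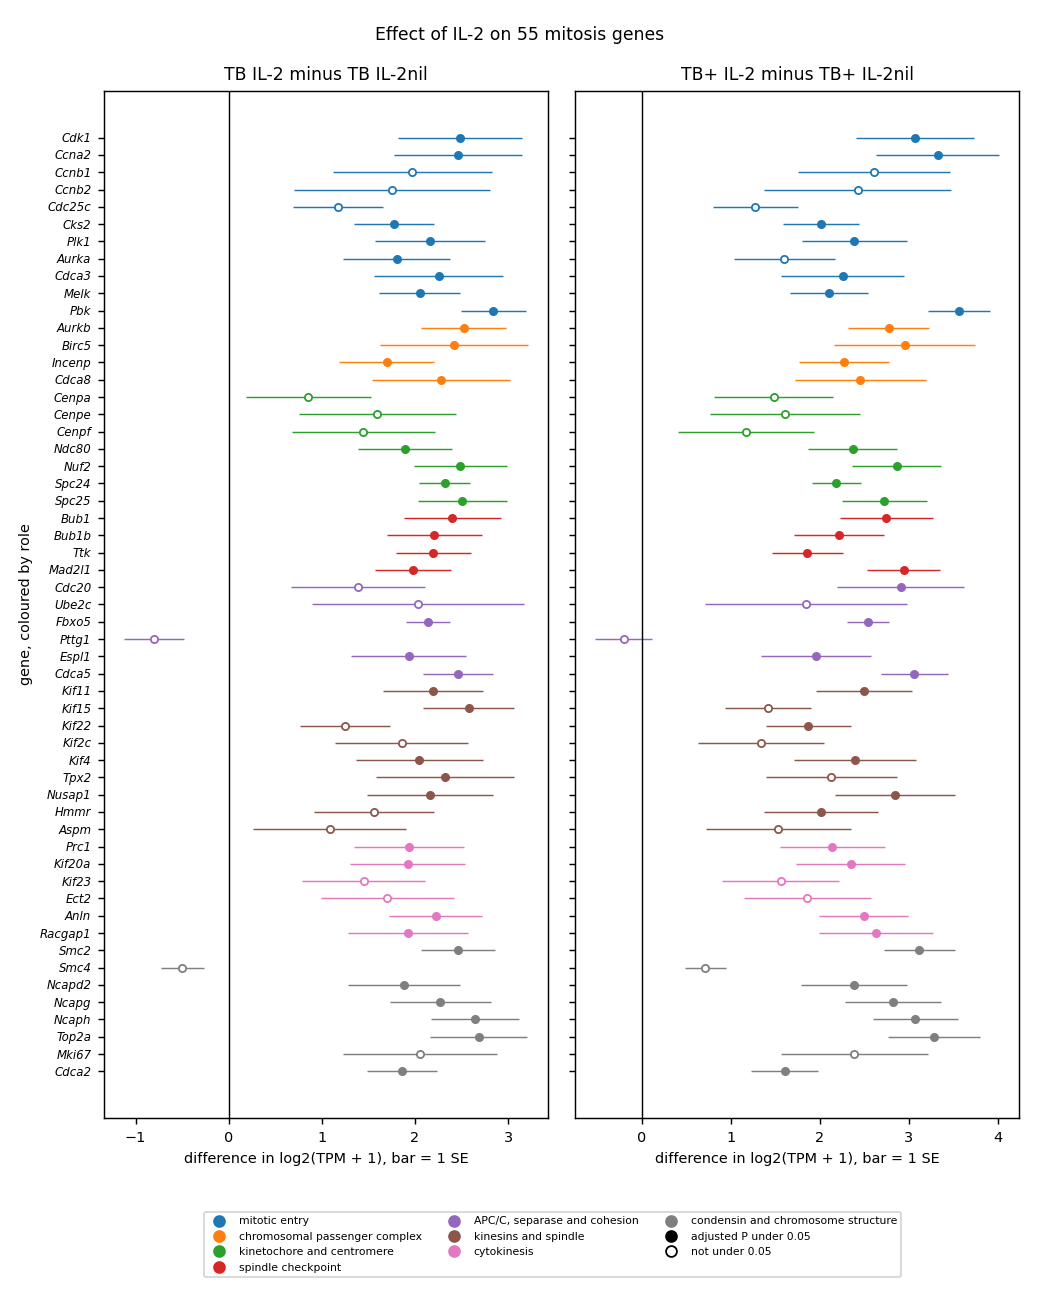
Difference in log2(TPM + 1) between cells with and without IL-2, at rest (left) and under PMA/I (right), for each gene, with a bar of 1 SE and filled circles for an adjusted P below 0.05. In both panels 38 circles are filled and all of these lie right of 0, while *Pttg1* is left of 0 in both and *Smc4* in the left one.

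Of the 11 genes of mitotic entry, 8 passed as higher with IL-2 at rest, and a median of 26.7% of their level was left without IL-2. *Cdk1*, the kinase that drives cells into mitosis (mm9 chromosome 10, 68799383 to 68815686, minus strand), was at 60.4, 67.7 and 76.0 TPM in TB IL-2, 3.54, 21.0 and 17.6 TPM in TB IL-2nil, 47.0, 35.2 and 61.7 TPM in TB+ IL-2, and 0.957, 7.08 and 10.7 TPM in TB+ IL-2nil. The TB IL-2 libraries lay well above the TB IL-2nil ones, with a difference of 2.48 (SE 0.67, adjusted P = 0.013), which became 1.90, adjusted P = 0.45 under the labels. *Ccna2*, cyclin A2, a partner of Cdk1 and Cdk2, was at 148, 166 and 208 TPM in TB IL-2, 8.72, 55.7 and 55.8 TPM in TB IL-2nil, 69.8, 63.9 and 110.5 TPM in TB+ IL-2, and 2.13, 9.33 and 14.7 TPM in TB+ IL-2nil. Its levels were also apart, by 2.46 (SE 0.69, adjusted P = 0.0158). *Ccnb1*, cyclin B1, the mitotic partner of Cdk1, was at 71.9, 118 and 136 TPM in TB IL-2, 7.32, 53.1 and 42.8 TPM in TB IL-2nil, 35.6, 35.4 and 72.0 TPM in TB+ IL-2, and 0.901, 9.27 and 20.9 TPM in TB+ IL-2nil. Both resting groups were apart here too, but the difference of 1.97 (SE 0.86, adjusted P = 0.0887) did not pass, and TB IL-2nil replicate 1 was far below the other libraries; with the replicate block the adjusted P was 0.0129. *Plk1*, the Polo-like kinase of spindle assembly and cytokinesis, was at 66.2, 67.3 and 97.0 TPM in TB IL-2, 5.35, 26.3 and 28.0 TPM in TB IL-2nil, 13.8, 9.50 and 19.9 TPM in TB+ IL-2, and 0.631, 1.33 and 4.92 TPM in TB+ IL-2nil, a difference at rest of 2.16 (SE 0.59, adjusted P = 0.0141). *Aurka*, the Aurora kinase of centrosomes and spindle poles, was at 44.9, 44.9 and 61.3 TPM in TB IL-2, 4.44, 25.3 and 20.7 TPM in TB IL-2nil, 11.2, 7.33 and 13.5 TPM in TB+ IL-2, and 0.935, 2.95 and 5.87 TPM in TB+ IL-2nil. The resting groups did not overlap, and the difference was 1.80 (SE 0.57, adjusted P = 0.0271). *Cks2*, a small subunit that binds Cdk1, was at 132, 187 and 246 TPM in TB IL-2, 23.2, 75.2 and 82.9 TPM in TB IL-2nil, 196, 155 and 199 TPM in TB+ IL-2, and 35.5, 39.4 and 61.9 TPM in TB+ IL-2nil, with a difference at rest of 1.78 (SE 0.43, adjusted P = 0.00765).

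*Pbk*, a kinase of dividing cells, showed the largest difference of the 55 genes at rest, 2.84 (SE 0.35, adjusted P = 0.000215), and 1.92, adjusted P = 0.397 as labelled. It was at 45.6, 35.7 and 30.2 TPM in TB IL-2, 2.62, 8.09 and 3.42 TPM in TB IL-2nil, 33.4, 21.2 and 28.8 TPM in TB+ IL-2, and 0.658, 2.07 and 1.67 TPM in TB+ IL-2nil. The highest TB IL-2nil library was thus far below the lowest TB IL-2 library. The other genes of this role, *Ccnb2*, *Cdc25c*, *Cdca3* and *Melk*, had differences between 1.18 and 2.26, and *Cdca3* and *Melk* passed.

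All 4 subunits of the chromosomal passenger complex, which corrects faulty attachments of chromosomes to the spindle, were higher with IL-2, by 1.70 to 2.52. *Aurkb*, its kinase, was at 92.7, 77.0 and 101 TPM in TB IL-2, 7.39, 20.1 and 21.1 TPM in TB IL-2nil, 29.2, 20.5 and 48.5 TPM in TB+ IL-2, and 1.71, 3.70 and 6.88 TPM in TB+ IL-2nil. TB IL-2 exceeded TB IL-2nil in every library, by 2.52 (SE 0.46, adjusted P = 0.00173). *Birc5*, survivin, was at 175, 192 and 272 TPM in TB IL-2, 9.03, 81.9 and 71.6 TPM in TB IL-2nil, 72.6, 78.5 and 139 TPM in TB+ IL-2, and 3.13, 16.9 and 23.0 TPM in TB+ IL-2nil. The difference was 2.42 (SE 0.79, adjusted P = 0.0314), with a wide spread in TB IL-2nil. *Incenp*, the scaffold, and *Cdca8*, borealin, differed by 1.70 (SE 0.51, adjusted P = 0.0216) and 2.28 (SE 0.74, adjusted P = 0.0302).

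Kinetochore and centromere genes were split, with 4 of 7 past the test. The genes past the test were the 4 subunits of the Ndc80 complex, which binds microtubules, and those not past it were the 3 CENP genes. *Ndc80* was at 57.7, 38.7 and 75.1 TPM in TB IL-2, 6.21, 19.8 and 22.1 TPM in TB IL-2nil, 18.4, 16.8 and 28.9 TPM in TB+ IL-2, and 1.35, 3.10 and 6.77 TPM in TB+ IL-2nil, and the difference at rest was 1.89 (SE 0.50, adjusted P = 0.0123). *Spc24* was at 56.4, 36.7 and 59.9 TPM in TB IL-2, 5.68, 10.8 and 12.5 TPM in TB IL-2nil, 30.8, 33.6 and 43.2 TPM in TB+ IL-2, and 6.61, 6.35 and 8.20 TPM in TB+ IL-2nil. Its replicates lay closer together than those of most of the 55 genes, and the difference was 2.32 (SE 0.28, adjusted P = 0.000181). *Nuf2* and *Spc25* differed by 2.49 (SE 0.50, adjusted P = 0.00299) and 2.51 (SE 0.48, adjusted P = 0.00231). *Cenpa*, the histone H3 variant that marks centromeres, was at 75.5, 129 and 165 TPM in TB IL-2, 26.5, 98.4 and 101 TPM in TB IL-2nil, 49.0, 76.0 and 103 TPM in TB+ IL-2, and 7.84, 40.2 and 49.7 TPM in TB+ IL-2nil. Here the resting groups overlapped and the difference of 0.86 (SE 0.67, adjusted P = 0.334) did not pass, although it did with the replicate block (adjusted P = 0.0415). *Cenpe*, a kinetochore motor, and *Cenpf* differed by 1.59 and 1.45 and did not pass; with the replicate block *Cenpe* did (adjusted P = 0.0367).

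The 4 spindle checkpoint genes, whose products hold back the APC/C until every chromosome is attached, all passed, by 1.98 to 2.40. *Bub1* was at 31.8, 29.3 and 48.1 TPM in TB IL-2, 1.85, 8.49 and 11.2 TPM in TB IL-2nil, 21.8, 20.8 and 32.9 TPM in TB+ IL-2, and 1.04, 3.79 and 4.66 TPM in TB+ IL-2nil. TB IL-2 was above TB IL-2nil in all libraries, by 2.40 (SE 0.52, adjusted P = 0.00445). *Mad2l1*, which encodes MAD2, was at 76.5, 72.9 and 99.3 TPM in TB IL-2, 10.2, 28.8 and 26.9 TPM in TB IL-2nil, 42.4, 51.1 and 67.2 TPM in TB+ IL-2, and 3.02, 7.33 and 9.12 TPM in TB+ IL-2nil. Its difference was 1.98 (SE 0.41, adjusted P = 0.00346), with no overlap between the resting groups. *Ttk*, the checkpoint kinase MPS1, was at 29.7, 18.0 and 27.9 TPM in TB IL-2, 2.02, 6.68 and 6.51 TPM in TB IL-2nil, 4.63, 4.13 and 6.46 TPM in TB+ IL-2, and 0.0628, 0.622 and 1.61 TPM in TB+ IL-2nil, a difference of 2.20 (SE 0.40, adjusted P = 0.00182), and *Bub1b* differed by 2.21 (SE 0.51, adjusted P = 0.00624).

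Among the 6 genes of the APC/C, separase and cohesion role, *Fbxo5*, *Espl1* and *Cdca5* passed and *Cdc20*, *Ube2c* and *Pttg1* did not. *Fbxo5*, or EMI1, an inhibitor of the APC/C (mm9 chromosome 10, 4540941 to 4547381, plus strand), was at 85.9, 62.0 and 87.8 TPM in TB IL-2, 11.4, 22.3 and 18.5 TPM in TB IL-2nil, 20.9, 18.6 and 25.5 TPM in TB+ IL-2, and 2.67, 2.70 and 3.20 TPM in TB+ IL-2nil. It had the smallest adjusted P of the 55 genes at rest, with a difference of 2.14 (SE 0.24, adjusted P = 0.000133) that was 2.00, adjusted P = 0.0301 under the labels, and its adjusted P was below 0.05 in all 24 alternative analyses. *Espl1*, the separase that cuts cohesin, was at 34.0, 19.7 and 38.2 TPM in TB IL-2, 1.83, 11.6 and 13.3 TPM in TB IL-2nil, 11.5, 6.01 and 14.8 TPM in TB+ IL-2, and 0.545, 1.92 and 4.19 TPM in TB+ IL-2nil. The groups were apart by 1.93 (SE 0.62, adjusted P = 0.0281). *Cdca5*, or sororin, which stabilises cohesion, was at 57.7, 26.6 and 56.6 TPM in TB IL-2, 3.56, 10.3 and 9.87 TPM in TB IL-2nil, 22.7, 14.6 and 20.7 TPM in TB+ IL-2, and 1.303, 1.08 and 1.87 TPM in TB+ IL-2nil, a difference of 2.46 (SE 0.38, adjusted P = 0.000735). *Cdc20*, the activator of the APC/C, was at 67.6, 103 and 124 TPM in TB IL-2, 8.77, 73.2 and 67.4 TPM in TB IL-2nil, 123, 70.1 and 103 TPM in TB+ IL-2, and 5.21, 12.1 and 25.6 TPM in TB+ IL-2nil. In this gene 1 of the TB IL-2nil libraries exceeded the lowest TB IL-2 library, and the difference was 1.39 (SE 0.72, adjusted P = 0.147). *Ube2c*, the ubiquitin-conjugating enzyme of the APC/C, varied most of the 55 genes, with an SE of 1.14 on a difference of 2.03, which passed with the replicate block (adjusted P = 0.00722).

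*Pttg1*, which encodes securin, the inhibitor that keeps separase inactive, had a difference of the opposite sign. It was at 29.0, 17.7 and 19.8 TPM in TB IL-2, 55.7, 34.9 and 29.4 TPM in TB IL-2nil, 23.6, 13.5 and 22.7 TPM in TB+ IL-2, and 27.4, 15.2 and 27.2 TPM in TB+ IL-2nil. All 3 TB IL-2nil libraries were above all 3 TB IL-2 libraries, so that 180.4% of the level was left after withdrawal, the highest value of the 55 genes. The difference was -0.80 (SE 0.32, adjusted P = 0.0672), and with the replicate block its adjusted P was 0.00979. As labelled it was -0.68, adjusted P = 0.553. The gene lies at mm9 chromosome 11, 43233752 to 43239753, minus strand.

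Kinesins and spindle proteins passed in 5 of 9 cases (*Kif11*, *Kif15*, *Kif4*, *Tpx2* and *Nusap1*). *Kif11*, the motor that pushes spindle poles apart, was at 122, 99.3 and 135 TPM in TB IL-2, 8.52, 43.2 and 40.6 TPM in TB IL-2nil, 77.0, 48.7 and 80.5 TPM in TB+ IL-2, and 5.83, 12.9 and 17.3 TPM in TB+ IL-2nil. The TB IL-2 libraries were all above the TB IL-2nil ones, by 2.19 (SE 0.54, adjusted P = 0.0085). *Tpx2*, which activates Aurora A on the spindle, was at 75.0, 83.3 and 95.8 TPM in TB IL-2, 3.93, 30.9 and 30.8 TPM in TB IL-2nil, 24.9, 18.1 and 38.0 TPM in TB+ IL-2, and 1.37, 5.64 and 13.6 TPM in TB+ IL-2nil, a difference of 2.32 (SE 0.74, adjusted P = 0.0281). *Kif22*, a chromosome-bound kinesin that moves chromosomes outward, was at 87.7, 53.8 and 84.9 TPM in TB IL-2, 23.2, 37.6 and 32.5 TPM in TB IL-2nil, 17.2, 12.3 and 25.5 TPM in TB+ IL-2, and 2.05, 2.42 and 11.6 TPM in TB+ IL-2nil. Its resting groups did not overlap, but the difference of 1.25 (SE 0.48, adjusted P = 0.0587) was smaller than that of most of the role and did not pass; with the replicate block its adjusted P was 0.0244. *Kif2c*, a kinesin that takes microtubules apart, was at 33.6, 26.2 and 40.5 TPM in TB IL-2, 1.69, 18.1 and 14.97 TPM in TB IL-2nil, 4.70, 3.47 and 8.45 TPM in TB+ IL-2, and 0.242, 1.09 and 4.72 TPM in TB+ IL-2nil. Its difference of 1.86 (SE 0.71, adjusted P = 0.0577) passed with the replicate block (adjusted P = 0.0199). *Hmmr* and *Aspm*, both spindle pole proteins, differed by 1.56 and 1.08 and did not pass; with the replicate block *Hmmr* did (adjusted P = 0.0145).

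Of the 6 cytokinesis genes, *Prc1*, *Kif20a*, *Anln* and *Racgap1* passed, by 1.92 to 2.22. *Ect2*, the exchange factor that activates RhoA at the cleavage furrow, was at 36.9, 35.8 and 45.9 TPM in TB IL-2, 3.13, 22.3 and 18.7 TPM in TB IL-2nil, 20.4, 12.1 and 20.3 TPM in TB+ IL-2, and 0.833, 4.16 and 12.3 TPM in TB+ IL-2nil. Its resting groups were apart, and the difference of 1.70 (SE 0.71, adjusted P = 0.0794) passed with the replicate block (adjusted P = 0.0361). *Kif23*, the motor subunit of centralspindlin, differed by 1.45 (SE 0.66, adjusted P = 0.102).

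Condensin and chromosome structure genes passed in 6 of 8 cases. *Smc2*, 1 of the 2 ATPases at the core of condensin, was at 97.6, 90.2 and 110.1 TPM in TB IL-2, 8.47, 24.9 and 23.3 TPM in TB IL-2nil, 66.0, 68.3 and 82.0 TPM in TB+ IL-2, and 3.76, 9.24 and 11.0 TPM in TB+ IL-2nil. It was lower in every TB IL-2nil library, with a difference of 2.46 (SE 0.40, adjusted P = 0.000938). *Top2a* (mm9 chromosome 11, 98854257 to 98885503, minus strand, with an exon that overlaps a small RNA gene on the same strand) was at 528, 444 and 540.4 TPM in TB IL-2, 29.4, 122 and 127 TPM in TB IL-2nil, 336, 248 and 339.5 TPM in TB+ IL-2, and 15.7, 36.9 and 47.6 TPM in TB+ IL-2nil. It showed the next largest difference of the 55 genes after *Pbk*, 2.68 (SE 0.52, adjusted P = 0.00246). *Mki67* was at 284, 267 and 405 TPM in TB IL-2, 21.1, 132 and 146 TPM in TB IL-2nil, 183, 99.9 and 234 TPM in TB+ IL-2, and 7.53, 46.3 and 74.1 TPM in TB+ IL-2nil. The groups were apart, and the difference of 2.05 (SE 0.83, adjusted P = 0.0692) did not pass, while it did with the replicate block (adjusted P = 0.024). *Cdca2*, which targets a phosphatase to chromosomes, was at 36.0, 28.3 and 36.4 TPM in TB IL-2, 3.47, 11.9 and 13.6 TPM in TB IL-2nil, 9.46, 9.005 and 10.6 TPM in TB+ IL-2, and 1.95, 2.06 and 3.77 TPM in TB+ IL-2nil, a difference of 1.86 (SE 0.38, adjusted P = 0.00321). The condensin I subunits *Ncapd2*, *Ncapg* and *Ncaph* differed by 1.88, 2.27 and 2.64.

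*Smc4*, the partner of *Smc2* in the same condensin core, had a difference of the opposite sign at rest. It was at 251, 195 and 262 TPM in TB IL-2, 269.6, 319 and 422 TPM in TB IL-2nil, 167, 169.7 and 183 TPM in TB+ IL-2, and 90.8, 86.6 and 148 TPM in TB+ IL-2nil (mm9 chromosome 3, 68808660 to 68838545, plus strand). All 3 TB IL-2nil libraries were above all 3 TB IL-2 libraries, whereas TB+ IL-2nil had the lowest levels. The difference at rest was -0.50 (SE 0.23, adjusted P = 0.111), with an adjusted P of 0.0342 under the replicate block, and -0.10, adjusted P = 0.957 as labelled.

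The same question was then asked of stimulated cells. Under PMA/I, 38 of the 55 genes were higher with IL-2, all by more than 3-fold, and 0 were lower, against 12.9%, 3.21% and 8.4% of all genes. The median difference was 2.37 over the 55 genes and -0.04 over all genes tested, and a median of 20.0% of the level in TB+ IL-2 was left in TB+ IL-2nil. The groups did not overlap for 46 genes, against 18.9% of all genes, all higher with IL-2. No library belongs to both IL-2 comparisons, and 35 genes passed in both, which is 92.1% of either set of 38. Both comparisons share the fit and its estimate of the spread of each gene, and libraries of the same number deviated together. The overlap is thus not independent support, and the overlap over all genes was not counted. *Aurka*, *Kif15* and *Tpx2* passed at rest and not under PMA/I, and *Cdc20*, *Kif22* and *Hmmr* the reverse, and no gene passed the test of the difference between the 2 comparisons. With the replicate block *Aurka* and *Tpx2* passed under PMA/I too, and *Kif22* and *Hmmr* at rest too. Without the 2 libraries the number that passed was 20, at a median of 2.13, against 6.94% of all genes higher. As labelled it was 1, *Fbxo5*, at a median of 2.16, against 0.185% of all genes. With the replicate block it was 49, against 18% of all genes, and without TB+ IL-2nil replicate 1 or the library labelled TB IL-2nil replicate 3 it was 23.

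By role, the number higher with IL-2 under PMA/I was 7 of 11 for mitotic entry, 4 of 4 for the chromosomal passenger complex, 4 of 7 for the kinetochore, 4 of 4 for the checkpoint, 4 of 6 for the APC/C role, 5 of 9 for kinesins and spindle, 4 of 6 for cytokinesis and 6 of 8 for condensin and chromosome structure. *Pbk* again had the largest difference, 3.57 (SE 0.35, adjusted P = 0.000131), and 5.28% of its level was left in TB+ IL-2nil. *Ccna2* followed with 3.33 (SE 0.69, adjusted P = 0.00711). *Top2a* differed by 3.29 (SE 0.52, adjusted P = 0.00184) and *Mad2l1* by 2.94 (SE 0.41, adjusted P = 0.000915). *Fbxo5*, with the smallest SE of these, differed by 2.55 (SE 0.24, adjusted P = 0.000101). *Cdc20*, which had not passed at rest, differed by 2.91 (SE 0.72, adjusted P = 0.0162), with the lowest TB+ IL-2 library above the highest TB+ IL-2nil library. *Smc4* was above 0 here, at 0.71 (SE 0.23, adjusted P = 0.0506), and passed with the replicate block (adjusted P = 0.0115). *Pttg1* was the one gene below 0, at -0.21 (SE 0.32, adjusted P = 0.687), with overlapping groups and a sign that changed without upper-quartile scaling.

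PMA/I itself was examined next, first in cells kept in IL-2. Of the 55 genes, 11 passed as lower in TB+ IL-2 than in TB IL-2, against 23.3% of all genes, and 0 as higher, against 11.8%. The number called lower was thus close to the background, and the number called higher was below it. With more than a 3-fold fall the number was 8, against 3.1% of all genes. The median difference was -0.94 over the 55 genes and -0.22 over all genes tested, and a median of 53.4% of the level was left. TB+ IL-2 lay below TB IL-2 in every library for 40 of the 55 genes, against 35.1% of all genes. The 11 genes were *Plk1*, *Aurka*, *Aurkb*, *Incenp*, *Ttk*, *Fbxo5*, *Cdca5*, *Kif22*, *Kif2c*, *Prc1* and *Cdca2*. Without the 2 libraries 11 genes passed, *Kif20a* in place of *Cdca5*, against 19.7% of all genes lower. As labelled, 1 passed, *Fbxo5*, against 0.257% of all genes, at a median of -1.29. With the replicate block 18 passed, against 31.3% of all genes, which is again close to the background. Without TB+ IL-2 replicate 2 the number was 5, without TB+ IL-2 replicate 1, TB IL-2 replicate 1 or TB IL-2 replicate 3 it was 7, and without TB IL-2nil replicate 1, which belongs to neither group but to the same fit, it was 18.

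The largest falls with PMA/I in IL-2 were those of *Kif2c*, -2.45 (SE 0.71, adjusted P = 0.0208), and *Plk1*, -2.37 (SE 0.59, adjusted P = 0.0099). *Aurka* differed by -2.16 (SE 0.57, adjusted P = 0.0133) and *Ttk* by -2.10 (SE 0.40, adjusted P = 0.00244). For these 4 genes the highest TB+ IL-2 library was below the lowest TB IL-2 library; *Kif2c*, for example, went from 33.6, 26.2 and 40.5 TPM to 4.70, 3.47 and 8.45 TPM. *Kif22*, at -2.01 (SE 0.48, adjusted P = 0.00803), *Fbxo5*, at -1.81 (SE 0.24, adjusted P = 0.000257), and *Cdca2*, at -1.69 (SE 0.38, adjusted P = 0.0058), also passed. The fall of *Fbxo5* was -1.95, adjusted P = 0.0227 as labelled. By contrast, *Cdk1* differed by -0.53 (SE 0.67, adjusted P = 0.573), *Top2a* by -0.72 (SE 0.52, adjusted P = 0.307) and *Mad2l1* by -0.63 (SE 0.41, adjusted P = 0.254), none past the test. The smallest differences were those of *Cks2*, -0.0034 (SE 0.43, adjusted P = 1), and *Cdc20*, 0.01 (SE 0.72, adjusted P = 0.995), both with overlapping groups and with a sign that changed between settings.

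In cells without IL-2, PMA/I was followed by 24 of the 55 genes being lower in TB+ IL-2nil than in TB IL-2nil and 1, *Kif15*, being higher, against 41.1% and 20.1% of all genes. The number called lower was again close to the background and the number called higher below it, while 17 of the 55 fell by more than 3-fold, against 10.7% of all genes. The median was -1.31 over the 55 genes and -0.38 over all genes tested, and a median of 32.2% of the level was left. TB+ IL-2nil lay below TB IL-2nil in every library for 11 genes, against 42.3% of all genes, and the groups overlapped for 43. By role the number lower was 4 of 11 for mitotic entry, 2 of 4 for the chromosomal passenger complex, 2 of 7 for the kinetochore, 2 of 4 for the checkpoint, 2 of 6 for the APC/C role, 3 of 9 for kinesins and spindle, 4 of 6 for cytokinesis and 5 of 8 for condensin and chromosome structure. Without the 2 libraries 13 genes passed as lower, against 35.6% of all genes, and as labelled 6 did (*Plk1*, *Incenp*, *Ttk*, *Fbxo5*, *Cdca5* and *Kif22*), against 3.46% of all genes. With the replicate block 37 passed as lower, against 46.3% of all genes. Without TB IL-2nil replicate 1 the number was 50, without TB IL-2nil replicate 2 it was 13, without the library labelled TB+ IL-2 replicate 3 it was 15, and without TB+ IL-2nil replicate 1 it was 12. Shares of all genes with single libraries left out are not given here. Median-of-ratios scaling, which set the median of all genes at -0.08, gave 14, against 28.3% of all genes.

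All 11 genes that were lower with PMA/I in IL-2 were also among the 24 lower after withdrawal, which is 100% of the first and 45.8% of the second set. These 2 comparisons have no library in common but share the fit and its estimate of the spread of each gene. This overlap is not independent support either, and the overlap over all genes was not counted. *Kif22* (mm9 chromosome 7, 134171246 to 134185934, minus strand) had the largest difference after withdrawal, -2.63 (SE 0.48, adjusted P = 0.000676), followed by *Plk1* (mm9 chromosome 7, 129302951 to 129313389, plus strand), -2.60 (SE 0.59, adjusted P = 0.00278). *Plk1* was below 5 TPM in all 3 TB+ IL-2nil libraries. *Fbxo5* differed by -2.21 (SE 0.24, adjusted P = 2.00e-05), the smallest adjusted P of the 55 genes in this comparison, and -2.36, adjusted P = 0.0118 as labelled; its 3 TB+ IL-2nil levels lay between 2.67 and 3.20 TPM. *Cdca5* differed by -1.78 (SE 0.38, adjusted P = 0.00185) and *Ttk* by -1.76 (SE 0.40, adjusted P = 0.00286). *Smc4*, which was not lower after withdrawal alone, differed by -1.65 (SE 0.23, adjusted P = 0.000125), and by -1.24, adjusted P = 0.0751 as labelled, with no overlap between the groups. *Pbk* and *Top2a* differed by -1.14 (SE 0.35, adjusted P = 0.0144) and -1.32 (SE 0.52, adjusted P = 0.0448). The smallest differences were those of *Cks2*, -0.24 (SE 0.43, adjusted P = 0.637), and *Spc24*, -0.35 (SE 0.28, adjusted P = 0.291), with signs that changed under other settings, and *Pttg1* was at -0.75 (SE 0.32, adjusted P = 0.0613), past the test with the replicate block (adjusted P = 0.00889).

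**Figure D5:**
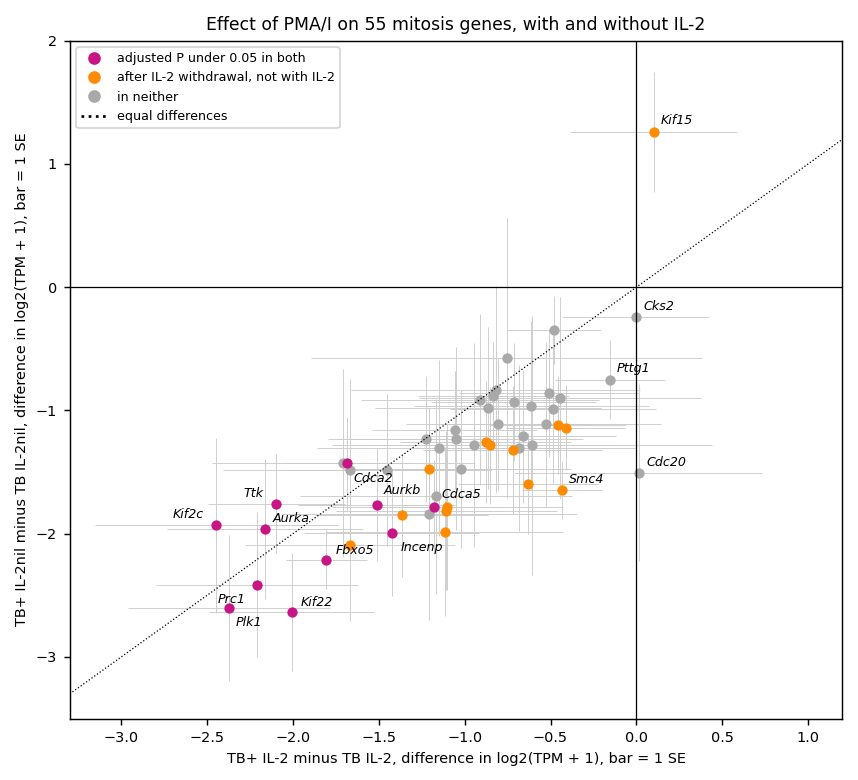
Effect of PMA/I on the 55 genes in log2(TPM + 1), with IL-2 (horizontal axis) and after IL-2 withdrawal (vertical axis), with bars of 1 SE; the dotted line marks equal differences. The 11 genes past the test in both comparisons lie at the lower left, and *Kif15* is the one gene above 0 on the vertical axis.

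*Kif15*, a spindle kinesin that can back up *Kif11*, was named after its values were seen. It was at 58.8, 54.4 and 74.3 TPM in TB IL-2, 3.65, 14.2 and 15.6 TPM in TB IL-2nil, 88.8, 55.9 and 59.2 TPM in TB+ IL-2, and 46.7, 18.9 and 16.1 TPM in TB+ IL-2nil (mm9 chromosome 9, 122860199 to 122927843, plus strand). It was lower without IL-2 at rest, by 2.58 (SE 0.49, adjusted P = 0.00221), and the TB+ IL-2nil levels were then all above the TB IL-2nil levels, 244.2% of them on average, with a difference of 1.26 (SE 0.49, adjusted P = 0.0419). This rise passed without the 2 libraries (1.59, adjusted P = 0.0365), and not as labelled (0.64, adjusted P = 0.609) or with the replicate block (adjusted P = 0.0576), and its adjusted P was below 0.05 in 10 of 24 alternative analyses. The highest of the 3 values belongs to TB+ IL-2nil replicate 1, the library that was lowest in its group for 50 of the 55 genes. With IL-2 the PMA/I difference of *Kif15* was 0.10 (SE 0.49, adjusted P = 0.895), with a sign that changed under other settings. As shown above, its promoter carries the CHR element next to an E2F site, and a link of these letters to its levels was not tested.

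Whether IL-2 mattered more in stimulated than in resting cells was tested as an interaction term. None of the 55 genes passed in limma (0), against 4.23% of all genes, and 1 was at an unadjusted P below 0.05, against 2875 of the 12442 genes tested. The median interaction was 0.35 over the 55 genes and 0.16 over all genes tested. It was above 0 for 46 of the 55 genes, against 7527 of the 12442 genes. Without the 2 libraries the number was 18, against 7273 of all genes, and with quantile normalization 26, against 6778. The largest interaction was that of *Cdc20*, 1.52 (SE 1.02, adjusted P = 0.399), and the lowest that of *Kif15*, -1.16 (SE 0.69, adjusted P = 0.339). *Smc4* came nearest to passing, with 1.21 (SE 0.33, adjusted P = 0.0636), and did pass with the replicate block (adjusted P = 0.0186): the cells without IL-2 had the higher levels of it at rest and the lower levels under PMA/I, without overlap in either case.

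Other genes of the same machinery were read from lists of the textbook complexes. Of 67 further mitotic genes, 49 were higher with IL-2 at rest and 0 lower, with a median of 1.66, against 17.3% of all genes higher, and 40 were higher under PMA/I, against 12.9%. As labelled both counts were 0, and without the 2 libraries they were 48 and 27. The condensin II subunit *Ncapg2* was the largest of these at rest, with a difference of 3.02 (limma, adjusted P = 0.000142). The core of the APC/C itself differed less: 5 of its 13 subunits were higher with IL-2 at rest and 0 lower, with a median of 0.32. Its largest difference was that of *Anapc5*, 1.36 (limma, adjusted P = 0.000682). Of all genes, 17.3% were higher and 22.3% lower at rest, which is the background for this list and those that follow. Of 12 cohesin and loader genes, 5 passed as higher and 4 as lower, and their median was 0.36; *Esco2*, an acetyltransferase that establishes cohesion, was the highest with a difference of 2.98. Of 11 MuvB, MYBL2 and FOXM1 regulators, which act on CHR promoters, 8 were higher and 1 lower, and *Mybl2* differed by 3.11 (limma, adjusted P = 2.82e-05). Counts for these 3 smaller lists were made as placed only. Of 33 DNA replication genes, 32 were higher with IL-2 at rest, with a median of 2.60, and as labelled 1 was. With PMA/I in IL-2, 6 of the 33 were lower, with a median of -0.57, against 23.3% of all genes; the number was 2 as labelled, 12 without the 2 libraries and 16 with the replicate block. Among their promoters, 23.1% of 26 held a CHR element and 46.2% an E2F site, against 77.8% and 8.89% of the 45 matched mitosis genes, and 1 of the 12 matched APC/C core genes (8.33%) held a CHR element. A CHR element was held by 8 of the 8 matched genes among the 11 lower with PMA/I in IL-2, by 13 of 17 (76.5%) among the 24 lower after withdrawal and by 23 of 30 (76.7%) among the 38 higher with IL-2 at rest.

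Markers of other cells were read beside these results, with levels in TPM before scaling between libraries and tests after it. The summed level of 5 B cell markers was 25.1 to 34.0 TPM in TB IL-2nil and 6.82 to 14.7 TPM in TB IL-2, and 4 of the 5 were lower with IL-2 at rest. Under PMA/I the sums were 2.48 to 3.79 TPM in TB+ IL-2 and 4.58 to 12.5 TPM in TB+ IL-2nil. CD8 markers were at 0.85 to 24.6 TPM, the summed myeloid markers at 1.52 to 4.74 TPM, and the NK cell markers at 0 to 0.295 TPM, with *Ncr1* at 0 in all 12 libraries. Of 7 CD4 T cell markers, 5 were lower and 1 higher with IL-2 at rest, with a median difference of -0.56, and 4 were lower and 1 higher under PMA/I, with a median of -0.61. The part of the B cell and CD4 T cell markers in the IL-2 results was not tested. Exons of *Ccna2*, *Cdca8*, *Cdc20*, *Ube2c*, *Kif4*, *Nusap1*, *Kif20a* and *Ncapg* overlap a gene on the other strand in mm9, and whether reads were counted by strand is not given in the sources used here.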

How the data were processed

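RNA-Seq libraries were prepared by the authors from ribosomal RNA-depleted total RNA with a directional kit. Per the labels and the study's methods, reads were trimmed with Trimmomatic 0.32 and aligned to mm9 with HISAT2 2.1.0, and the deposited FPKM values were made with StringTie 1.3.3 on RefSeq models. FPKM was rescaled to a sum of 1000000 per library (TPM), the 12442 genes that exceeded 1 TPM in 1 or more libraries entered the fit, libraries were scaled on their 75th percentile, and log2(TPM + 1) was fitted with limma 3.58.1 (R 4.3.3) on 4 groups, with 8 residual degrees of freedom. The code was tested on simulated data with independent libraries and a capped spread per gene, which checks the code and says nothing of the calls in these data. Read depth is not given in the sources used here; from the steps between low FPKM values, relative depth ran from 0.409 to 1.25 times the median library. The 55 genes, their roles, the other lists, the motifs and the rule for named genes (20 genes spread over the roles, then the 2 smallest and 2 largest differences of each comparison and the 6 smallest adjusted P of each PMA/I comparison) were chosen with earlier results of these data known. Same-numbered libraries, as placed, deviated together from their group means in all 18 pairs (correlation 0.101 to 0.531, against -0.416 to 0.171 for other pairs). The numbers come from the labels, which do not say what libraries of 1 number share. The main fit ignored this pairing, and the replicate block, which uses it, was run as an alternative. Alternatives were other scalings, pseudocounts and filters, the replicate block, other placements of the 2 libraries, and each library left out.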

Additional observations from a re-analysis of the deposited data

How the results depend on the processing

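Read depth is not given in the sources used here, so that the precision of low levels is not known. The libraries of TB IL-2nil and of TB+ IL-2nil were widely spread, and the part of this spread in the calls was not tested. The median of the 55 genes minus that of all genes kept its direction in the 4 comparisons of groups under the alternatives run: 2.17 for IL-2 at rest (1.46 to 2.57 with each library left out), 2.41 under PMA/I (1.91 to 2.82), -0.73 for PMA/I with IL-2 (-0.98 to -0.57) and -0.93 after withdrawal (-1.69 to -0.51), while the interaction, 0.20, ran from -0.30 to 0.85. Counts of genes past the test moved more, and the cause was not tested. At rest, the number higher was 1 as labelled, 21 with no filter on low values and 22 to 42 with each library left out; over 3-fold it was 1, 21 and 18 to 41, and the number lower was 2 with quantile normalization or the replicate block and 0 to 1 with each library left out. For PMA/I with IL-2, the number lower was 1 as labelled, 2 with no filter, 18 with the replicate block, 31 with only the groups compared and 5 to 18 with each library left out, and over 3-fold 1 as labelled, 1 with no filter and 5 to 11. After withdrawal, the number lower was 6 as labelled, 13 without the 2 libraries, 40 with no upper-quartile scaling, 12 with quantile normalization, 14 with median-of-ratios scaling, 6 with no filter, 37 with the replicate block, 12 with only the groups compared and 12 to 50 with each library left out; over 3-fold it was 6, 5, 34, 7, 7, 3 (no filter), 11 (only the groups compared) and 6 to 44. The number higher was 0 as labelled, with no upper-quartile scaling, with a pseudocount of 0.1, with no filter, with the replicate block and with only the groups compared, and 0 to 1 with each library left out. Under PMA/I, the number higher with IL-2 was 1 as labelled, 20 without the 2 libraries, 22 with no filter and 23 to 47 with each library left out, and over 3-fold 1, 19, 22 and 22 to 44. The interaction was called for 1 gene with quantile normalization or the replicate block and for 0 to 1 with each library left out. Of all genes, median-of-ratios scaling called 28.1% higher and 28.3% lower with PMA/I after withdrawal (20.1% and 41.1% as reported, with the median of all genes at -0.08 in place of -0.38) and 16.7% and 14.6% with PMA/I in IL-2 (11.8% and 23.3%), and no upper-quartile scaling called 11.5% higher and 0.466% lower with IL-2 under PMA/I (12.9% and 8.4%). The sign changed for differences that were not past the test as reported: *Kif15* and *Pttg1* with PMA/I in IL-2 ran from -0.52 to 0.41 and from -0.29 to 0.14 over the alternatives, and *Ccnb2* and *Ube2c* after withdrawal from -2.38 to 0.0019 and from -1.84 to 0.61; *Cdc20* with PMA/I in IL-2 was -0.19 as labelled, -0.037 without the 2 libraries, -0.063 with no upper-quartile scaling, -0.18 with quantile normalization, -0.0085 with a filter of 1 TPM in 3 libraries and as low as -0.23 with a library left out; *Cks2* was 0.24 with median-of-ratios scaling, 0.0079 without short RNA, 0.30 with no filter and from -0.24 to 0.21 with a library left out in that comparison, and 0.078 without the 2 libraries, 0.15 with median-of-ratios scaling, 0.20 with no filter and from -0.82 to 0.078 with a library left out after withdrawal; *Spc24* after withdrawal was 0.20 with quantile normalization, 0.0065 with median-of-ratios scaling and 0.057 with no filter; and *Pttg1* for IL-2 under PMA/I was 0.17 with no upper-quartile scaling and from -0.48 to 0.040 with a library left out. The replicate block took away 1 call among the 55 genes, *Kif15* after withdrawal, and changed no other call than those given beside the results and the added calls in the counts above.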
